A study of Mus musculus with 9 samples.

Results

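Hmga and Igf2bp genes are known as oncofetal: most of them are abundant in the embryo, low in most adult tissues and active again in many tumours. HMGA proteins are small chromatin proteins whose AT-hooks bind the minor groove of AT-rich DNA, and IGF2BP proteins bind messages and protect or localize them. The microRNA let-7 represses many of these messages, and the RNA-binding protein LIN28B blocks the maturation of let-7. The genes were chosen by symbol from a table of 12842 genes: of the 6 listed, Hmga1, Hmga2, Igf2bp1 and Igf2bp2 were analysed, and the expression of Igf2bp3 and Lin28b was not analysed here.

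The libraries were made from poly-A RNA of NPK cells, a mouse prostate cancer line isolated from lung metastases of NPK mice. These mice are engineered to develop metastatic prostate tumours, and all groups share their genetic background. The 9 libraries form 3 groups of 3: control cells, cells with an shRNA against Nsd2, a histone H3 lysine methyltransferase (shNsd2), and cells exposed to a small molecule called MCTP, of which the study describes number 39 as a putative inhibitor of NSD2. The MCTP libraries carry the numbers 39, 40 and 41, and the source field gives Nsd2 as the target of shNsd2 replicate 1 but Nsd3 and Nsd4 for replicates 2 and 3; each trio was treated as 1 group by its title. The study's methods give an shRNA against luciferase as the control for gene silencing, and DMSO as the vehicle of number 39 in assays on human prostate cancer cells. Which of these the control libraries received, and the dose and duration of MCTP in NPK cells, are not given in the sources used here. Nothing states that the libraries came from separate cultures, so p-values measure the spread between libraries, which may be technical. Values are on a log2 scale with no read totals, so sequencing depth is unknown.

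Nsd2, listed under its older symbol Whsc1 (ENSMUSG00000057406.8), checks the shNsd2 label. Its log2 values were 12.48, 12.43 and 12.42 in control replicates 1 to 3, 11.56, 11.61 and 11.68 with shNsd2, and 12.15, 12.21 and 12.07 with MCTP. All 3 shNsd2 libraries, whichever gene the source field names, lay below all others, and the MCTP libraries lay between them and the controls. On a linear scale Nsd2 was at 56.3% ± 2.47 (SD, n = 3) of its level in control cells with shNsd2 and at 81.3% ± 3.91 (SD, n = 3) with MCTP. With MCTP the log2 fold change of Nsd2 was -0.30 (limma, adjusted p = 0.00562), but it was -0.12 after correction for the GC content of transcripts (limma, adjusted p = 0.0775, with a range of 2.72e-04 to 0.132 over the alternatives).

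The cell type label was checked against marker genes. Among luminal epithelial markers, Krt8, Krt18, Krt19, Cdh1 and Hoxb13 were above the low-value filter (3.78) in all 9 libraries. Epcam had a control mean of 3.55, below the filter, and Pbsn was not analysed here. All 5 mesenchymal genes were above it, with Vim the most abundant at a control mean of 17.21. Of 6 leukocyte markers only Cd68 was analysed, and of 4 endothelial markers only Cdh5, which was below the filter in the controls (mean 3.50). In bulk RNA, fewer cells of a type and less RNA per cell cannot be told apart.

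Per length, the 4 genes spanned a wide range of levels. After subtraction of the log2 exon length in kilobases, the control means were 12.96 for Hmga1, 11.02 for Hmga2, 8.76 for Igf2bp2 and 2.98 for Igf2bp1. Of the 12513 genes with an exon length, 98.7% lay below Hmga1, 94.4% below Hmga2, 72.4% below Igf2bp2 and 8.55% below Igf2bp1 on that scale. The order was the same with shNsd2 (13.09, 10.67, 8.60 and 3.25) and with MCTP (12.53, 10.41, 8.41 and 3.14). Every neighbouring pair in this order differed by far more than the spread within a group.

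Between the control and shNsd2 groups, Hmga2 and Igf2bp2 were lower with shNsd2, Igf2bp1 was higher, and Hmga1 did not pass the test. limma called 3 of the 4 genes at an adjusted p under 0.05, 2 lower and 1 higher. Of the 12205 genes tested in this comparison, 47.8% were called, 24.8% lower and 23.1% higher, so no more is read from 3 of 4. For 3 of the 4 genes the groups did not overlap, as for 57.2% of all genes tested.

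Between the control and MCTP groups, Hmga1, Hmga2 and Igf2bp2 were lower with MCTP and Igf2bp1 was higher. limma called 4 of 4 genes, 3 lower and 1 higher, against a background of 35.2% of 12216 genes called, 17.2% lower and 18% higher. The groups did not overlap for 4 of 4 genes, and for 50.6% of all genes tested. The comparisons of shNsd2 and MCTP with control share the same 3 control libraries, so their values are set side by side and not counted as separate support for each other.

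Between shNsd2 and MCTP, the test of the difference itself, limma called 3 of 4 genes, all 3 higher with shNsd2, where 43.2% of 12217 genes were called. The groups did not overlap for 4 of 4 genes, and for 55% of all genes tested.

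**Figure D1:**
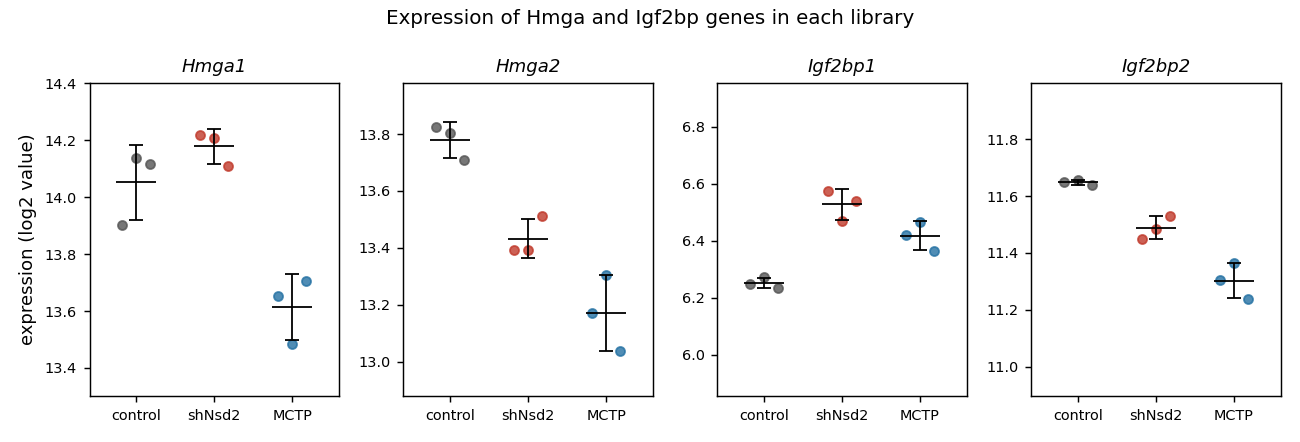
Expression of Hmga1, Hmga2, Igf2bp1 and Igf2bp2 (y axes, log2 value, all spanning the same range) in the control, shNsd2 and MCTP groups (x axes); points are libraries in the order of their replicate numbers, and bars are the mean and SD of 3 libraries. For Hmga1 the control and shNsd2 libraries overlap and the MCTP libraries lie below both, whereas for Hmga2 and Igf2bp2 the 3 groups step down from control to shNsd2 to MCTP.

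Hmga2 (ENSMUSG00000056758.8; chr10:120361275-120476469 on the minus strand, GRCm38) encodes the HMGA protein best known for embryonic growth and mesenchymal tumours. Its log2 values were 13.82, 13.81 and 13.71 in control replicates 1 to 3, 13.39, 13.39 and 13.51 with shNsd2, and 13.17, 13.31 and 13.04 with MCTP. All 6 shNsd2 and MCTP libraries lay below all control libraries, and all MCTP libraries lay below all shNsd2 libraries. On a linear scale Hmga2 was at 78.6% ± 3.75 (SD, n = 3) of the control mean with shNsd2, a log2 fold change of -0.35 (SE 0.047; limma, adjusted p = 4.38e-04). With MCTP it was at 65.7% ± 6.12 (SD, n = 3), a log2 fold change of -0.61 (SE 0.076; limma, adjusted p = 0.00125). Both calls held in 14 of 14 alternatives, and 91.0% and 97.1% of genes had a smaller absolute change in the shNsd2 and MCTP comparisons. Hmga2 was higher with shNsd2 than with MCTP by 0.26 (SE 0.075; limma, adjusted p = 0.0265), a call that held in 7 of 14 alternatives. Adjusted p ranged from 5.98e-04 to 0.0997 over them, and only 1 of 6 fits that left out a library, that without MCTP replicate 2, kept the call.

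Hmga1 (ENSMUSG00000046711.9; chr17:27556497-27563674 on the plus strand) encodes the other AT-hook protein of the family, which is abundant in dividing cells. Its log2 values were 13.90, 14.14 and 14.12 in control replicates 1 to 3, 14.22, 14.21 and 14.11 with shNsd2, and 13.65, 13.48 and 13.70 with MCTP. Control replicate 1 was the lowest of the controls, shNsd2 replicate 3 lay within the controls' range, and all 3 MCTP libraries were below the other 6. With shNsd2 the log2 fold change was 0.13 (95% confidence interval -0.02 to 0.27; limma, adjusted p = 0.133), and it was 0.05 without control replicate 1 and 0.05 after GC correction (limma, adjusted p = 0.3596). That difference passed the threshold only under quantile normalization (limma, adjusted p = 0.0225, with a range up to 0.389 over the alternatives). With MCTP Hmga1 was at 73.8% ± 5.80 (SD, n = 3) of the control mean, a log2 fold change of -0.44 (SE 0.085; limma, adjusted p = 0.00769). Tested directly, it was higher with shNsd2 than with MCTP by 0.56 (SE 0.069; limma, adjusted p = 8.12e-04). The MCTP call and the direct call held in 14 of 14 alternatives. Reads that also match near-identical sequence elsewhere may have been divided in counting, so the values of Hmga1 are uncertain.

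Igf2bp2 (ENSMUSG00000033581.10; chr16:22059009-22163299, minus strand) encodes the family member that persists in adult tissues and is linked to metabolism. Its log2 values were 11.65, 11.66 and 11.64 in control replicates 1 to 3, 11.45, 11.49 and 11.53 with shNsd2, and 11.30, 11.36 and 11.24 with MCTP. No library of any group overlapped another group, and the controls lay closer together than the other groups. Igf2bp2 was at 89.5% ± 2.47 (SD, n = 3) of the control mean with shNsd2, a log2 fold change of -0.16 (SE 0.034; limma, adjusted p = 0.0047). With MCTP it was at 78.8% ± 3.39 (SD, n = 3), a log2 fold change of -0.35 (SE 0.050; limma, adjusted p = 0.00244). Both calls held in 14 of 14 alternatives, although the change with shNsd2 was small: 36.7% of the genes tested had one at least as large. The level was higher with shNsd2 than with MCTP by 0.19 (SE 0.050; limma, adjusted p = 0.0214, with a range of 0.00185 to 0.0978), and this call held in 8 of 14 alternatives and in 1 of 6 fits that left out a library, that without MCTP replicate 2.

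Igf2bp1 (ENSMUSG00000013415.3; chr11:95957163-96005940, minus strand) encodes a largely fetal IGF2BP protein and was the least expressed of the 4 genes per length. Its log2 values were 6.25, 6.27 and 6.23 in control replicates 1 to 3, 6.58, 6.47 and 6.54 with shNsd2, and 6.42, 6.47 and 6.37 with MCTP. All shNsd2 and MCTP libraries lay above all controls, and shNsd2 replicate 2 and MCTP replicate 2 were nearly equal, so that the shNsd2 and MCTP groups barely escaped overlap. With shNsd2 the log2 fold change was 0.28 (SE 0.039; limma, adjusted p = 5.37e-04), called in 14 of 14 alternatives. With MCTP it was 0.17 (SE 0.043; limma, adjusted p = 0.0223), called in 8 of 14 alternatives with adjusted p between 0.00957 and 0.0810. After GC correction it was 0.13 (limma, adjusted p = 0.0676), and the call was lost when control replicate 1, 2 or 3 (0.17, 0.18 and 0.16) or MCTP replicate 1 (0.16) was left out. The difference between shNsd2 and MCTP, 0.11 (95% confidence interval 2.83e-04 to 0.22; limma, adjusted p = 0.0946), did not pass the threshold, although it did without MCTP replicate 2 (0.13; limma, adjusted p = 0.0326, with a range of 0.0131 to 0.268).

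Each single difference was also put to an exact two-sided permutation test of the library means. Wherever the groups did not overlap, the exact permutation test gave p = 0.1, the smallest that 3 libraries against 3 allow, so it cannot pass 0.05. For Hmga1 with shNsd2 the exact permutation test gave p = 0.3.

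Sums of marker genes, taken on a linear scale, also moved with the groups. The summed basal epithelial level (Krt14, Krt15 and Trp63; Krt15 the most abundant, Krt5 not analysed here) was 98.03%, 101.0% and 101.0% of the control mean in the controls, 55.8%, 52.7% and 51.0% with shNsd2, and 121%, 100.8% and 120.4% with MCTP. The summed mesenchymal level was 96.5%, 102.0% and 101.6% in the controls, 87.3%, 88.6% and 82.8% with shNsd2, and 119.9%, 107.6% and 121.6% with MCTP. Both sums lay below the controls with shNsd2, as Hmga2 and Igf2bp2 did, whereas with MCTP the mesenchymal sum, most of which is Vim, lay above them. The members of a list did not all follow its sum. With MCTP Vim was called higher (0.32) and Zeb1 lower (-0.23), and Fn1 (-0.09), Twist2 (-0.07) and Cdh2 (-0.04) did not pass the test; with shNsd2 Twist2 was called higher (0.17) and the other 4 lower. Krt14 was called higher with shNsd2 (0.78), against the basal sum. The luminal sum (7 genes, Krt8 the most abundant in the controls) was 93.0%, 105.2% and 101.8% in the controls, 91.0%, 87.3% and 81.2% with shNsd2, and 120.1%, 102.6% and 132.0% with MCTP, where Krt19 was called higher (0.37) and Cdh1 lower (-0.34). The fibroblast sum (3 of 4 genes, mostly Col1a1; Lum not analysed here) was 102.9%, 95.1% and 102.0% in the controls, 82.0%, 85.3% and 82.2% with shNsd2, and 85.1%, 83.7% and 75.5% with MCTP. Col1a1 was called lower with both (-0.30 and -0.33). Against the sum, Pdgfra was called higher with shNsd2 (0.13), and with MCTP (0.05) it did not pass the test. Cd68 alone was at 97.4%, 98.2% and 104.5% in the controls, 118.4%, 118.5% and 113.7% with shNsd2, and 159%, 153% and 187% with MCTP. Their part in the changes of the Hmga and Igf2bp genes was not tested.

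MCTP replicate 2, the library numbered 40, stood apart from the other MCTP libraries across the whole table. The correlation between replicates ranged from 0.9964 to 0.9995 within MCTP, against 0.9994 to 0.9998 within shNsd2. Across the genes of the table, MCTP replicate 2 correlated with MCTP replicates 1 and 3 at 0.9979 and 0.9964, and with control replicates 1 to 3 at 0.9967, 0.9967 and 0.9965. It was the MCTP library nearest the controls for Hmga2 and Igf2bp2 and the farthest from them for Hmga1 and Igf2bp1. Without MCTP replicate 2, limma called 7384 genes between MCTP and control, against 4305 with all libraries. Leaving out another library lowered that count, to 2046 without MCTP replicate 1, 2842 without MCTP replicate 3, and 2366, 2162 and 2456 without control replicates 1, 2 and 3. The calls of Hmga1, Hmga2 and Igf2bp2 between MCTP and control were kept in 6 of 6 such fits.

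The genes most like each member were sought among 12149 genes above the filter in all 9 libraries, by Pearson correlation over those libraries, as a description; the groups themselves make up much of the variation. Those reported for Hmga1 are the kinase gene Pim3 (r = 0.996) and the methionyl-tRNA synthetase gene Mars (0.993). Hmga2 was most like Oxct1, a ketone-body enzyme gene (0.995), the receptor gene Calcrl (0.995) and Gcnt4 (0.994). Igf2bp2 was most like Sbf2 (0.997), Snx25 (0.996) and Gtdc1 (0.995). For Igf2bp1 the closest were the receptor gene Pdgfra (0.968), the growth factor gene Tgfa (0.959) and Prl2c2 (0.954), of which Pdgfra, at a control mean of 3.99, was barely above the filter.

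Because let-7 is described as a repressor of many of these messages, the mature let-7 sequences and the sites that match them are shown. Of 11 mature sequences of the let-7 family and miR-98 in the RefSeq table (GRCm38.p6), 10 share the seed GAGGUAG at bases 2 to 8, in capitals here, and let-7j has GAGGUAU. Only the first locus listed for each name was kept, so a sequence may have other loci. These are chr13:48538239-48538260 (minus strand) for let-7a, chr9:106178846-106178867 (plus strand) for let-7g, chrX:151913229-151913250 (plus strand) for miR-98 and chr3:140028281-140028304 (plus strand) for let-7j.
let-7a-5p: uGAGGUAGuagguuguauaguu
let-7g-5p: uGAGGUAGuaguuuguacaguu
miR-98-5p: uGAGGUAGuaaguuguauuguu
let-7j: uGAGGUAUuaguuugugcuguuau

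The complement of the shared seed, CTACCTC, was searched on the transcript strand in the longest annotated 3′ untranslated region of each gene (GENCODE M21). Hmga2 held 4 sites in 3014 bases, Igf2bp1 4 in 6337, Lin28b 4 in 4445, and Hmga1 (1183 bases), Igf2bp2 (1784 bases) and Igf2bp3 (2119 bases) 1 each. Across 21037 genes, 9.02% of these regions held a site. Among 2246 regions within 20% of its length, its own included, 0.134% held at least as many sites as Hmga2. Counted the same way, the share was 0.355% of 564 regions for Igf2bp1 and 0.236% of 1271 for Lin28b. At least 1 site was held by 8.07% of regions of the length of Hmga1, 12.04% for Igf2bp2 and 13.3% for Igf2bp3. A match is a description of sequence only, and the level of let-7 was not analysed here.

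The sites are given as windows of 30 bases with the match in capitals, all 4 for Hmga2 and, for the other genes, the first that is followed by A, or else the first. Those of Hmga2 begin at bases 58, 1295, 1733 and 2591 of its 3′ untranslated region, in its last exon, at chr10:120364225-120364231, chr10:120362988-120362994, chr10:120362550-120362556 and chr10:120361692-120361698 (minus strand, GRCm38). The others are at chr17:27563292-27563298 (Hmga1, plus strand), chr11:95961779-95961785 (Igf2bp1, minus strand), chr16:22059474-22059480 (Igf2bp2, minus strand), chr6:49086788-49086794 (Igf2bp3, minus strand) and chr10:45381023-45381029 (Lin28b, minus strand).
Hmga2, base 58: gacattcaatttCTACCTCagcatcagttg
Hmga2, base 1295: cactcctcaataCTACCTCtgaatgctaca
Hmga2, base 1733: atttgcaaggaaCTACCTCcacacttccaa
Hmga2, base 2591: caaaacacactaCTACCTCttaagtcccag
Hmga1, base 801: tctgttcacaaaCTACCTCtggacggttgt
Igf2bp1, base 1715: gtgcgaagtaaaCTACCTCaaggtgtgaag
Igf2bp2, base 1313: cacaaataaaagCTACCTCaggtgtttttt
Igf2bp3, base 548: atttttactcaaCTACCTCaggtattcagt
Lin28b, base 36: cgggcgggaagtCTACCTCatgcaagcaca

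Hmga2 and Igf2bp1 each held 4 let-7 sites, and with shNsd2 Hmga2 was lower and Igf2bp1 higher. Whether let-7 has a part in these changes was not tested. The promoters of Hmga2 and Igf2bp2, the genes that were lower in both comparisons with control, are shown as the 250 bases before the annotated start (RefSeq, GRCm38.p6). The Hmga2 promoter (chr10:120476470-120476719, minus strand) was 70.8% C or T on the sense strand, more than 99.6% of 32851 promoters. CTCTCT, in capitals, occurred 7 times over both strands with overlaps counted, where 0.292% of promoters held at least as many and 23.4% held at least 1.
Hmga2: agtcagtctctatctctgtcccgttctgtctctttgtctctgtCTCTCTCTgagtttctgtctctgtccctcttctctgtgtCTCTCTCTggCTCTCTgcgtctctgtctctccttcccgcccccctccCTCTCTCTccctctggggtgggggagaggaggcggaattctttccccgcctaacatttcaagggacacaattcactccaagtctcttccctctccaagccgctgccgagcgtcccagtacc

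The Igf2bp2 promoter (chr16:22163300-22163549, minus strand) was 77.2% G or C, more than 97.4% of promoters. It held 2 matches to GGGCGG or its complement CCGCCC, in capitals, which 16.7% of promoters equalled or exceeded and of which 32.7% held at least 1. It held no CTCTCT. Such a match is not a measured binding site.
Igf2bp2: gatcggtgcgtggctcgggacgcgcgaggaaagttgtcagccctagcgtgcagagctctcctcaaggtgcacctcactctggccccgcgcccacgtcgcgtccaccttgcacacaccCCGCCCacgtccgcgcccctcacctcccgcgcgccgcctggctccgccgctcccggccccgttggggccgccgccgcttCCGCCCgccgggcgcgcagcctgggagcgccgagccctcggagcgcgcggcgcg

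Genes related to the Hmga and Igf2bp families were grouped in 8 lists by role. The background for each of their counts is 47.8% of genes called for shNsd2 and 35.2% for MCTP, each against control, and the median log2 fold change of all genes tested was 0.002 and -0.006. After GC correction more genes of the whole table were called, 56% for shNsd2 and 45.6% for MCTP, and counts after that correction are read against these shares. Between shNsd2 and MCTP 43.2% of all genes were called. The shares were 57.1% for other high mobility group genes, 21.1% for microRNA processing, 53.8% for let-7 targets and 73.3% for IGF2BP1 partners. They were 70.6% for the N6-methyladenosine machinery, 50% for bound messages, 52.9% for HMGA partners and targets and 80% (4 of 5) for fetal growth genes. Calls went both ways in the lists of let-7 targets, bound messages, HMGA partners and targets and fetal growth genes.

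Among other high mobility group genes, which encode the HMGB and HMGN chromatin proteins, Hmgb1 and Hmgb2 were lower with MCTP. Of 7 tested, limma called 3 lower with MCTP (median log2 fold change -0.18) and 0 in either direction with shNsd2 (median -0.03, 1 at an unadjusted p under 0.05). With MCTP the DNA-bending protein gene Hmgb1 fell from a control mean of 13.80 to 13.19 (limma, adjusted p = 0.00737, up to 0.0416 over the alternatives). Hmgb2, its paralog of dividing cells, fell from 12.64 to 12.12 (limma, adjusted p = 0.0125, up to 0.0580), a log2 fold change of -0.52 that was -0.30 after GC correction. Hmgn2 was called at the threshold (limma, adjusted p = 0.0499), and that call held in 5 of 14 alternatives. With shNsd2, 2 were called higher without control replicate 1 and 1 higher after GC correction. In the other direction, 1 was called lower without control replicate 2 and 1 without control replicate 3.

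Of 19 genes tested that make, block or degrade let-7 and other microRNAs, 5 were called higher and 4 lower with shNsd2 (median 0.02), and 2 higher and 4 lower with MCTP (median -0.13). The shares called, 47.4% and 31.6%, were near or below those of all genes, so nothing is read from them about the group. Tarbp2, the Dicer partner, rose from a control mean of 9.96 to 10.27 with shNsd2 (limma, adjusted p = 2.07e-04). The helicase gene Ddx17 and the Drosha cofactor gene Dgcr8 were called higher as well, by 0.30 and 0.21. Zcchc6, a terminal uridylyltransferase gene that acts on let-7 precursors, fell from 10.80 to 10.51 (limma, adjusted p = 0.00131). With MCTP its paralog Zcchc11 fell from 10.04 to 9.53 (limma, adjusted p = 0.0252) and Dicer1 from 11.21 to 10.92 (limma, adjusted p = 0.0237), but each of these MCTP calls held in only 1 of 6 fits that left out a library.

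Of 26 other messages tested that are described as let-7 targets, 7 were called higher and 7 lower with shNsd2 (median 0.04), and 4 higher and 7 lower with MCTP (median -0.13). Thbs1, which encodes the matrix protein thrombospondin 1, had a control mean of 15.34. It fell to 14.45 with shNsd2 (limma, adjusted p = 5.55e-06) and rose to 15.91 with MCTP (limma, adjusted p = 0.00265), and the direct difference was -1.46 (limma, adjusted p = 2.07e-05). The ubiquitin-conjugating enzyme gene Cdc34, at 11.21 in the controls, was called higher with both, by 0.44 and 0.56. With shNsd2 the polyadenylation factor gene Cpsf4 and the cell cycle factor gene E2f2 were higher by 0.38 and 0.37.

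Of 15 partners of IGF2BP1 in ribonucleoprotein particles, 11 were called higher with shNsd2 than with MCTP (median 0.25, beside 0.007 for all genes tested and 43.2% called). The other 4 did not pass the test, among them Ybx1 (-0.05) and Stau1 (-0.02), named after their values were seen. After GC correction 10 were called higher with shNsd2 than with MCTP, where 56.4% of all genes were called. Against control, 4 were called higher and 1 lower with shNsd2 (median 0.06) and 4 lower with MCTP (median -0.10), shares of 33.3% and 26.7% that lie below those of all genes; after GC correction 9 were called with shNsd2, where 56% of all genes were. The count of 11 became 4 without shNsd2 replicate 1, where 29.2% of all genes were called, and 6 without shNsd2 replicate 2, shNsd2 replicate 3 or MCTP replicate 1, where 28.1%, 28% and 27.8% were. The 5 calls with shNsd2 became 2 without shNsd2 replicate 2, and 3 without shNsd2 replicate 1 or control replicate 3, where 35.6%, 36.6% and 42.1% of all genes were called. With shNsd2 the stress granule gene G3bp1 rose from 13.50 to 13.68 (limma, adjusted p = 0.00319) and Ilf2 from 11.53 to 11.69 (limma, adjusted p = 0.0033). With MCTP Syncrip and Hnrnpr, which encode hnRNP proteins, were called lower (-0.51 and -0.40, or -0.28 and -0.21 after GC correction), and these calls held in 3 and 1 of 6 fits that left out a library.

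Of 17 genes of the N6-methyladenosine machinery, which sets, removes or reads a mark that IGF2BP proteins can read, 12 were called higher with shNsd2 than with MCTP (median 0.29, beside 0.007 and 43.2% called for all genes tested). The other 5 did not pass the test, among them Fto (-0.14) and 1110037F02Rik (-0.07), named after their values were seen. After GC correction 14 were called higher and 1 lower with shNsd2 than with MCTP, where 56.4% of all genes were called. Against control, 6 were called higher and 1 lower with shNsd2 (median 0.09) and 5 lower with MCTP (median -0.14), shares of 41.2% and 29.4% that lie below those of all genes. After GC correction 11 were called with shNsd2, where 56% of all genes were, and 5 with MCTP (median -0.05), where 45.6% were. The shNsd2 median was 0.02 without shNsd2 replicate 3 and 0.06 without control replicate 2. The count of 12 became 6 without shNsd2 replicate 3 and 7 without MCTP replicate 1, where 28% and 27.8% of all genes were called. Among the writers, Rbm15 rose from 8.96 to 9.29 with shNsd2 (limma, adjusted p = 9.92e-04) and Mettl3, the catalytic subunit gene, from 9.75 to 9.99 (limma, adjusted p = 0.00162). The reader gene Ythdf1 rose from 11.30 to 11.59 (limma, adjusted p = 2.35e-04). With MCTP Mettl14, the partner of Mettl3, fell from 9.49 to 9.10 (limma, adjusted p = 0.00655), a log2 fold change of -0.39 that was -0.21 after GC correction. The call of Wtap (-0.26) was lost after GC correction. It held in 6 of 14 alternatives and in 1 of 6 fits that left out a library.

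Of 12 messages tested that are described as bound by IGF2BP proteins, 3 were called higher and 2 lower with shNsd2 (median 0.04), and 2 higher and 1 lower with MCTP (median 0.09). After GC correction 5 were called with MCTP, where 45.6% of all genes were. Ptgs2, the inducible cyclooxygenase gene, rose from 11.99 to 12.98 with shNsd2 (limma, adjusted p = 1.26e-05) and to 13.09 with MCTP (limma, adjusted p = 9.43e-04). Cd44, a hyaluronan receptor gene, fell from 15.37 to 14.95 with shNsd2 (limma, adjusted p = 5.78e-05). Myc was called higher with shNsd2 by 0.19 (limma, adjusted p = 0.0264), or 0.12 without control replicate 1, and lower with MCTP by a log2 fold change of -0.30 (limma, adjusted p = 0.0149), each call held in 4 of 6 fits that left out a library, and the direct difference was 0.48 (limma, adjusted p = 2.69e-04).

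Among partners and described targets of the HMGA proteins, 4 of 17 were called higher and 6 lower with shNsd2 (median -0.05), and 5 higher and 4 lower with MCTP (median -0.09, or -0.05 after GC correction). No lower call with MCTP was left without control replicate 1, 2 or 3, or without MCTP replicate 1 or 3. In those fits 16.7% to 23.3% of all genes were called. Without MCTP replicate 2, 7 were called lower, where 60.4% of all genes were called. Ptgs2 belongs to this list too. The DNA repair gene Ercc1 rose from 11.03 to 11.41 with shNsd2 (limma, adjusted p = 2.07e-04), and Zeb1, a transcription factor gene of the mesenchymal state, fell from 10.47 to 10.19 (limma, adjusted p = 8.04e-04). With MCTP the helix-loop-helix inhibitor genes Id3 and Id1 rose, from 11.32 to 12.13 (limma, adjusted p = 4.95e-04) and from 10.60 to 11.34 (limma, adjusted p = 2.07e-04).

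Of 15 other fetal growth genes, most of them imprinted, 8 were analysed and 5 passed the filter. With shNsd2, 1 was called higher and 2 lower (median 0.01), and with MCTP 1 higher and 1 lower (median -0.02). Peg3 fell from 9.32 to 8.69 with shNsd2 (limma, adjusted p = 3.94e-04), and Igf2r, the receptor gene that clears IGF2, from 12.92 to 12.53 (limma, adjusted p = 5.29e-05). Mest was called higher with shNsd2 by 0.37 and with MCTP by 0.18. Its MCTP call held in 11 of 14 alternatives and in 3 of 6 fits that left out a library.

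With MCTP the number called depended on single libraries across the whole table, from 16.7% of all genes without MCTP replicate 1 to 60.4% without MCTP replicate 2, and the lists are read against that. When each library was left out in turn, the number called ranged from 1 to 5 for other high mobility group genes, 0 to 12 for microRNA processing, 5 to 16 for let-7 targets, 1 to 7 for IGF2BP1 partners, 1 to 9 for the N6-methyladenosine machinery, 2 to 7 for bound messages, 3 to 13 for HMGA partners and targets and 0 to 2 for fetal growth genes. The highest count was without MCTP replicate 2 in each list. limma called 0 genes of the microRNA processing and fetal growth lists without control replicate 2, control replicate 3 or MCTP replicate 1, where 17.7%, 20.1% and 16.7% of all genes were called and where 7, 6 and 6 of the former and 2, 2 and 2 of the latter had an unadjusted p under 0.05.

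The list medians with shNsd2 were small and moved with single libraries too. When each library was left out in turn, they ranged from -0.07 to 0.04 for other high mobility group genes, -0.02 to 0.06 for microRNA processing, 0.02 to 0.04 for let-7 targets, 0.03 to 0.10 for IGF2BP1 partners, 0.02 to 0.12 for the N6-methyladenosine machinery, -0.002 to 0.05 for bound messages, -0.07 to -0.04 for HMGA partners and targets and -0.06 to 0.05 for fetal growth genes. With MCTP the median of HMGA partners and targets was -0.03 without control replicate 1, -0.05 without MCTP replicate 1 and -0.04 without MCTP replicate 3, and that of fetal growth genes ranged from -0.08 to 0.007. After GC correction the medians of the 8 lists, in the same order, were 0.001, 0.03, 0.01, 0.11, 0.12, 0.03, -0.04 and 0.05 with shNsd2, and -0.14, -0.14, -0.11, -0.07, -0.05, 0.09, -0.05 and -0.01 with MCTP.

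**Figure D2:**
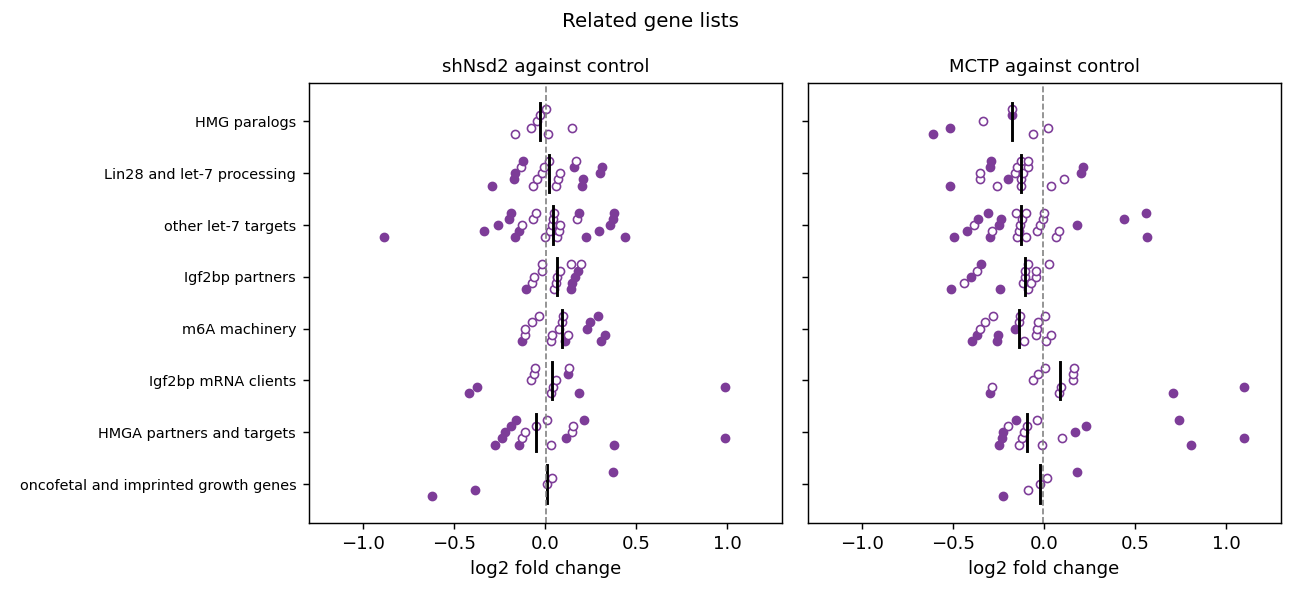
Log2 fold changes (x axes) of the genes of 8 related lists (rows) with shNsd2 and with MCTP, each against the same controls; filled points were called by limma at an adjusted p under 0.05, black bars are list medians, and the dashed line is the median of all genes tested. The median of the other high mobility group genes lies at -0.18 with MCTP, and most lists hold called genes on both sides of the line.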

How the data were processed

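The authors deposited log2 values of 12842 genes for the 9 libraries; their processing notes name the build mm9, TopHat, Cufflinks and DESeq2 without roles. For other libraries the study's methods describe normalization and variance stabilization with the last of these tools; the transform of this table is not given in the sources used here. A further 3 columns match no sample and were not used. A gene was tested if at least 3 of 6 libraries exceeded 3.78, the median of the lowest 10% among all values. Groups were compared with limma (version 3.58.1, R 4.3.3, eBayes with trend), and p-values were adjusted by Benjamini-Hochberg across every gene tested. limma replaced the count test, since the table holds no counts. Genes were matched by Ensembl ID to GENCODE M21 (GRCm38; 97.4% matched), which also gave GC content. The limma fits were tested on simulated data, and the outcome of that test is not reported here. Of each list and comparison with control, genes named were taken from the 4 called with the largest absolute change, and for each member the 3 genes most like it. The members and lists were chosen with earlier results of these data known. Some items of these lists and of the cells' genotype are not reported here.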

Additional observations from a re-analysis of the deposited data

How the results depend on the processing

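The fold changes of the 4 genes kept their sign in all 3 comparisons under every alternative run: no filter, all 9 libraries in 1 fit, the replicate block with and without GC correction, GC correction, quantile normalization, median centring, no variance trend, and each library left out. The mean correlation of same-numbered deviations was -0.25, -0.19 and -0.36 in the shNsd2, MCTP and direct comparisons, over 3 pairs each. Single pairs ranged from -0.51 to 0.25, -0.60 to 0.61 and -0.81 to 0.35. So few pairs cannot decide whether the replicate numbers pair libraries, and the main fits do not pair them. With the replicate block, 4515, 3399 and 3794 genes were called, against 5836, 4305 and 5276 without it (37%, 27.8% and 31.1% of genes, against 47.8%, 35.2% and 43.2%). It took the IGF2BP1 partners called from 11 to 5 in the direct comparison and from 5 to 3 with shNsd2, and, with MCTP, the HMGA partners and targets from 9 to 4, microRNA processing from 6 to 3 and the N6-methyladenosine machinery from 5 to 3. Bound messages called with MCTP went from 3 to 6 with all 9 libraries in 1 fit (46.7% of all genes) and to 5 under quantile normalization (35.6%), and fetal growth genes from 2 of 5 to 4 of 8 with no filter (35%) and to 1 with no variance trend (34.3%). The MCTP median of HMGA partners and targets was -0.06 under quantile normalization and under median centring, and that of fetal growth genes -0.05 and 0.01. In the direct comparison the block took Hmga2 (0.26; limma, adjusted p = 0.0649) and Igf2bp2 (0.19; limma, adjusted p = 0.0978) out of the calls; with block and GC correction Igf2bp1 with MCTP was 0.13 (limma, adjusted p = 0.0805), as with GC correction alone (0.13). Under quantile normalization Hmga1 with shNsd2 (0.14) and Igf2bp1 in the direct comparison (0.18) passed the threshold and Hmga2 in the direct comparison (0.25) did not. The causes were not tested.

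Over the fits without 1 library, the MCTP count ranged from 2046 to 7384 and the direct count from 3391 to 7781. The log2 fold change of Igf2bp1 with MCTP ranged from 0.14 to 0.19, and in the direct comparison Hmga2 ranged from 0.19 to 0.33, Igf2bp1 from 0.084 to 0.14 and Igf2bp2 from 0.15 to 0.22. With median centring 53.8% of called genes were higher with shNsd2 and 59.6% with MCTP, against 48.2% and 51.1% in the deposited scaling. The depth of each library is unknown, so its limit on Igf2bp1, the weakest gene, cannot be given.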

Other observations

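Keratin genes of the basal list moved apart from each other. Krt14 rose from a control mean of 8.91 to 9.69 with shNsd2 (limma, adjusted p = 2.22e-05) and to 10.09 with MCTP (limma, adjusted p = 2.74e-04). Krt15 fell from 12.55 to 11.35 with shNsd2 (limma, adjusted p = 5.65e-07), and with MCTP it was at 12.62 (limma, adjusted p = 0.520). The 3 groups did not overlap for Krt14, and for Krt15 the MCTP and control libraries did.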
